A study of Mus musculus with 8 samples.

Results

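The semaphorin, Eph, Slit and netrin guidance genes were measured in mouse skeletal myogenic cells before and after expansion in culture. Members were chosen by gene symbol, as the class 3 to 7 semaphorins (Sema), plexins (Plxn), neuropilins (Nrp), ephrins (Efn), Eph receptors, Slits, Robos, netrins (Ntn) and Unc5 receptors, and the symbols picked out 69 of the 24980 genes in the table. They comprised 20 semaphorins, 10 plexin symbols, 2 neuropilins, 8 ephrins, 14 Eph receptors, 3 Slits, 4 Robos, 4 netrins and 4 Unc5 receptors, that is 35 ligands and 34 genes on the receptor side. The plexin symbols included Plxna4os1, an antisense RNA gene at Plxna4 that encodes no receptor. Of the 69, 67 passed the filter on low counts and were tested, and the remaining members, the receptors Epha6 and Epha8, had counts in SF1 alone (0.799 and 0.581 CPM). Membership followed the symbol and did not use any measured value, but the members were chosen with earlier results of these data known.

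The study asked which genes accompany the capacity of expanded myogenic cells to engraft, and sequenced RNA from 4 groups of 2 libraries, described as biological replicates. TF cells were myogenic progenitors sorted fresh from teratomas, tumours of mixed tissue grown from implanted EGFP-labelled mouse embryonic stem cells (E14-EGFP) in injured, irradiated leg muscle of immunodeficient dystrophic NSG-mdx4Cv mice, with the gate EGFP+, CD31-, CD45-, α7-integrin+ and VCAM-1+. TE cells were teratoma-derived progenitors grown on gelatin in a myogenic expansion medium to passage 8. SF cells were satellite cells, the resident stem cells of muscle, taken fresh from adult animals, and SE cells were satellite cells grown to passage 8. The labels name no treatment besides culture. Age, strain and number of pooled animals behind each library were not given in the sources used here. With E14 as the stem cell line described for the teratomas, cell origin, line and age of the cells cannot be told apart.

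Guidance cues were named for steering growing axons, and the same ligands and receptors act on migrating cells, blood vessels and the contact between muscle and its nerve. Semaphorins signal through plexins, the secreted class 3 members mostly with a neuropilin as the binding subunit, whereas ephrins are held on the cell surface and bind Eph receptor tyrosine kinases on the neighbouring cell, so that signals can pass in both directions. Slits bind Robos, usually as a repellent, and netrins bind Dcc, neogenin and the Unc5 receptors, which turn attraction into repulsion. In muscle stem cells, these systems are known for satellite cell migration, patterning of the fibres' innervation and cell to cell contact.

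Deposited totals lay between 11930961 and 21146632 estimated counts per library, and the ribosomal precursor Rn45s took between 7.99% and 21.3% of them. Levels are given as CPM, the count relative to the library's total after TMM scaling (edgeR's trimmed mean of M-values), where 3 counts equal 0.141 to 0.252 CPM depending on the library. Genes were tested with edgeR's quasi-likelihood test, and a gene was called where the Benjamini-Hochberg adjusted p over all 17582 tested genes was below 0.05 and the log2 difference beyond 0.32 in either direction. Differences are log2 values with their SE. The replicates differed by more than sampling noise, least in TE (chi-square per degree of freedom 11.7) and most in SE (87.2), and the p-values measure the spread between these libraries.

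Markers of other cell types moved with culture and stand beside every fall reported here. The summed level of 7 endothelial markers was 268 and 74.9 CPM in TF, 288 and 371 in SF, 1.11 and 0.467 in TE and 2.22 and 1.37 in SE, and Kdr, Tie1, Emcn and Cldn5 had no count in any expanded library. The sum of 6 haematopoietic markers was 375 and 35.9 CPM in TF1 and TF2, 38.7 to 49.9 in SF and 3.18 to 11.1 in the expanded libraries, with Ptprc at 0 in all 4 of those. The 5 fibro-adipogenic markers, led by Col1a1, summed to 15000 and 15200 CPM in TF, 1690 and 3110 in SF, 208 and 512 in SE and 23.7 and 9.60 in TE. In SE, Col1a1 made up 201 and 505 CPM of these sums. Dcn was there at 0 and 0.972 CPM, Lum at 0, Pdgfra at 2.64 and 1.43 and Ly6a at 3.87 and 4.52. Pericyte and smooth muscle markers stood at 589 to 820 CPM in the fresh libraries and 63.4 to 130 in the expanded ones, and Schwann and neural crest markers at 66.2 to 78.1 and 3.33 to 11.8. The neuronal sum was 92.1 and 75.9 CPM in TE against 95.8 and 66.1 in TF, and 37.7 and 21.6 in SE against 204 and 236 in SF. It therefore broke this order in the teratoma-derived cells only, where most of the TE sum came from Stmn2 (80.6 and 66.9). Stmn2 was higher after culture in both origins, whereas Map2 was lower. Map2 was at 70.7 and 60.8 CPM in TF, 2.72 and 3.11 in TE, 186 and 227 in SF and 0.613 and 0.286 in SE. The pluripotent list summed to 13.6 to 25.9 CPM in TF, mostly from Sox2, and to at most 0.972 in the expanded libraries. In SF the sum was 10.5 and 8.08 CPM, mostly from Nanog (8.65 and 7.54). Myogenic markers were abundant throughout, summing to 1920 to 4810 CPM, but members of the list moved in different directions with culture. Myog rose from 86.0 and 94.0 CPM in TF to 753 and 797 in TE, and from 0.509 and 0.875 in SF to 263 and 900 in SE. Myod1 and Des were also higher after culture in each origin. Myf5 was at 52.0 to 102 CPM in the fresh libraries and 4.31 to 9.68 in the expanded ones, and Pax7 and Vcam1 were lower there too. Calcr, a marker of quiescent satellite cells, was at 0 in all 4 expanded libraries. The part of all these markers in the results was not tested, and in bulk libraries fewer cells of a type and less RNA per cell cannot be told apart.

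**Figure D1:**
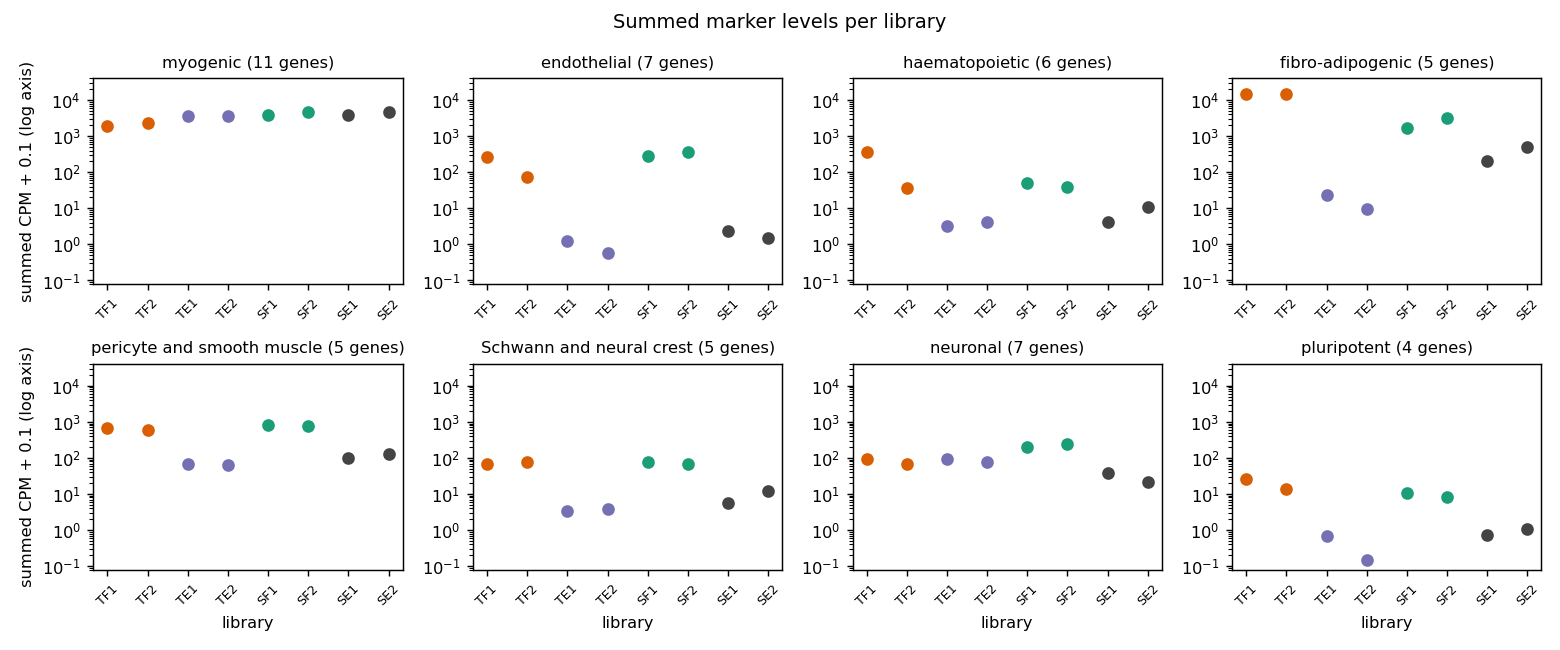
Summed CPM of 8 marker lists in the 8 libraries, plotted as CPM + 0.1 on a log axis with 1 point per library. Myogenic sums stay between 1920 and 4810 CPM, whereas the endothelial sums are at most 2.22 CPM in the expanded libraries and at least 74.9 CPM in the fresh ones.

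Culture moved most of the tested guidance genes in each cell origin. From TF to TE, 8 of the 67 rose and 29 fell (55.2%, against 26.1% of all tested genes; 9.86% of all genes rose and 16.2% fell). From SF to SE, 14 rose and 23 fell (55.2%, against 40.7% of all tested genes, with 20.9% rising and 19.8% falling). The median log2 difference of the 67 was -2.00 in the teratoma-derived cells, or -1.66 with groups at 0 set to their bound, against -0.18 over all tested genes, and -0.66 in the satellite cells against -0.23. Of the 32 tested genes on the receptor side 3 rose and 16 fell in TE, and 8 rose and 12 fell in SE, and of the 35 ligands 5 rose and 13 fell in TE, and 6 rose and 11 fell in SE. Scaling by median ratios in place of TMM shifted the median of all genes by -0.06 in TE against TF and by -0.19 in SE against SF.

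The comparisons TE against TF and SE against SF share no library. Culture lowered 19 members in both (28.4%, against 9.81% of all tested genes): Epha3, Epha4, Epha5, Ephb1, Robo2, Robo4, Slit3, Efnb3, Ntn1, Ntn4, Ntn5, Nrp1, Nrp2, Plxna4, Plxnc1, Plxnd1, Sema3f, Sema4a and Sema5a. It raised 6 in both (8.96%, against 6.34%): Sema3e, Sema6b, Robo1, Unc5b, Efnb1 and Epha1. Sema3a alone fell in TE and rose in SE (1.49%, against 1.18% of all tested genes called in opposite directions). A further 11 members were called in the teratoma-derived cells only (16.4%, against 8.73% of all tested genes) and 11 in the satellite cells only (16.4%, against 23.4%). This by itself does not show that the origins differed. The remaining 19 were called in neither (28.4%, against 50.6%).

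**Figure D2:**
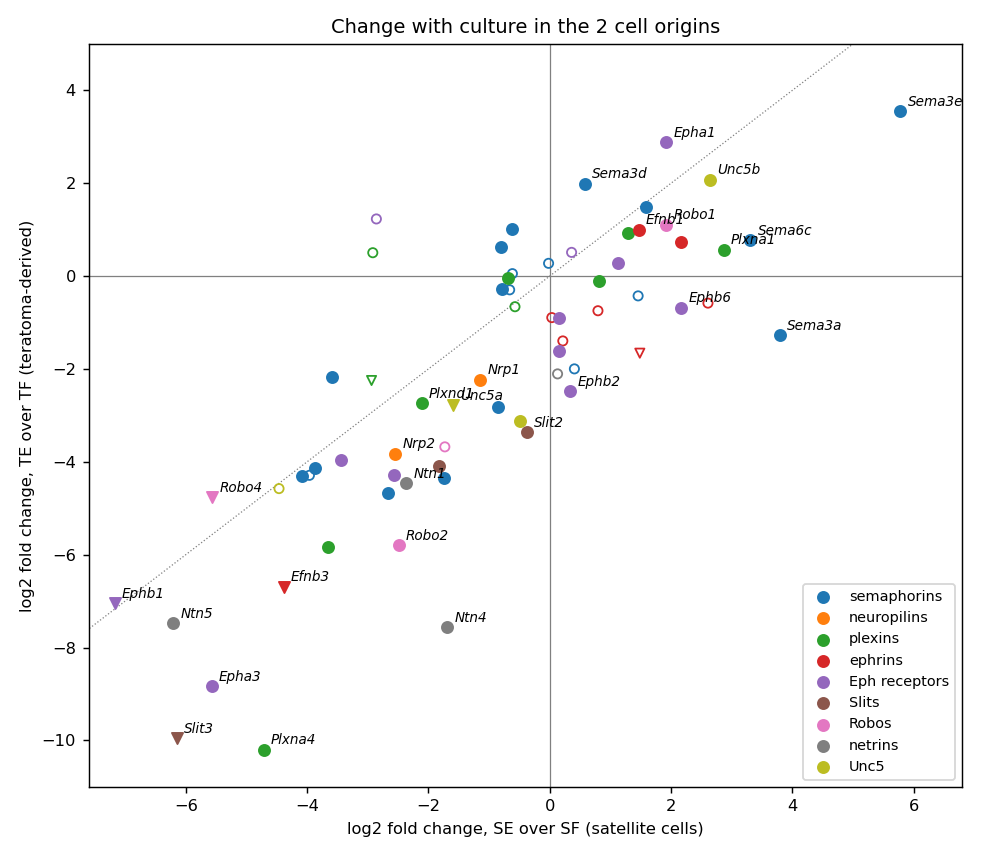
Log2 fold change with culture of the 67 tested members, SE over SF on the horizontal axis and TE over TF on the vertical axis, coloured by family, with the dotted line marking equal change. Filled symbols were called in at least 1 origin, and triangles have a group at 0 and are drawn at the bound that 3 counts per library allow. Sema3e lies at 5.78 and 3.55 and Sema3a at 3.80 and -1.27, and most filled symbols lie in the lower left, where both fold changes are negative. These include the 19 members called lower in both origins, and others that were called in 1 origin only.

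Sema3e, a secreted semaphorin that binds Plxnd1 without a neuropilin, had the largest rise of any member in both origins. Its level was 10 and 5.34 CPM in TF1 and TF2, 95.3 and 84.6 in TE, 9.38 and 6.06 in SF, and 580 and 268 in SE. All 4 expanded libraries were above all 4 fresh ones, and SE was above TE. The log2 difference was 3.55 ± 0.43 in TE against TF (adjusted p = 0.000307), 5.78 ± 0.47 in SE against SF (adjusted p = 1.99e-05) and -2.24 ± 0.39 in TE against SE (adjusted p = 0.00852). Plxnd1, the receptor named, went the other way, at 272 and 277 CPM in TF, 43.8 and 38.7 in TE, 180 and 215 in SF and 37.0 and 54.8 in SE. It fell by 2.73 ± 0.23 in TE (adjusted p = 3.95e-05) and by 2.11 ± 0.23 in SE (adjusted p = 9.31e-05), and TE and SE did not differ beyond their spread (-0.15 ± 0.22, adjusted p = 0.791). Per kb of exon, the mean level of Sema3e went from 1.12 CPM in TF and in SF to 13.1 in TE and 61.8 in SE, and that of Plxnd1 from 39.7 and 28.7 to 5.97 and 6.65.

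Slit3, a secreted Slit, fell from over 100 CPM to near or at 0. It stood at 151 and 153 CPM in TF and 103 and 183 in SF, at 0 in TE1, TE2 and SE1, and at 4.17 in SE2. TE was therefore at least 991-fold lower than TF, taking 3 counts per library as the limit, with adjusted p = 0.000852. In SE the difference from SF was -6.15 ± 1.06 (adjusted p = 0.00200). Without SE2, which holds every SE count, the fitted value of -14.17 depends on the prior count of the fit and is not a measured size. Robo1, the Robo with the highest level per length, rose: 115 and 131 CPM in TF, 266 and 265 in TE, 124 and 117 in SF, 526 and 388 in SE. The rise was 1.10 ± 0.20 in TE (adjusted p = 0.00305) and 1.93 ± 0.20 in SE (adjusted p = 8.20e-05). Robo1 was the only Robo that rose, whereas Robo2 and Robo4 fell in both origins and Robo3 was not called.

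Among the netrins and their receptors, Ntn1 fell and Unc5b rose in both origins. Ntn1, the founding netrin, was at 128 and 123 CPM in TF, 7.92 and 3.48 in TE, 128 and 208 in SF and 35.5 and 29.8 in SE. It fell by 4.46 ± 0.40 in TE (adjusted p = 5.17e-05) and by 2.37 ± 0.36 in SE (adjusted p = 0.000667), and TE ended below SE (-2.51 ± 0.37, adjusted p = 0.00371). Unc5b, a netrin receptor best known from blood vessels, was at 40.2 and 44.0 CPM in TF, 191 and 165 in TE, 27.5 and 27.0 in SF and 231 and 109 in SE. It rose by 2.08 ± 0.31 in TE (adjusted p = 0.00112) and by 2.64 ± 0.32 in SE (adjusted p = 0.000184), and the expanded groups overlapped. Unc5b was the only Unc5 receptor that rose, whereas Unc5a, Unc5c and the netrin receptor Dcc fell in TE. Neogenin (Neo1) was not called with culture (-0.45, adjusted p = 0.117, in TE and -0.09, adjusted p = 0.734, in SE). Its level was 140 and 164 CPM in TF, 110 and 113 in TE, 74.6 and 98.5 in SF and 83.1 and 79.8 in SE. Sema3e, Slit3 and Ntn1 were each set beside 1 receptor after the values had been seen, and these receptors do not stand for the rest of their families.

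**Figure D3:**
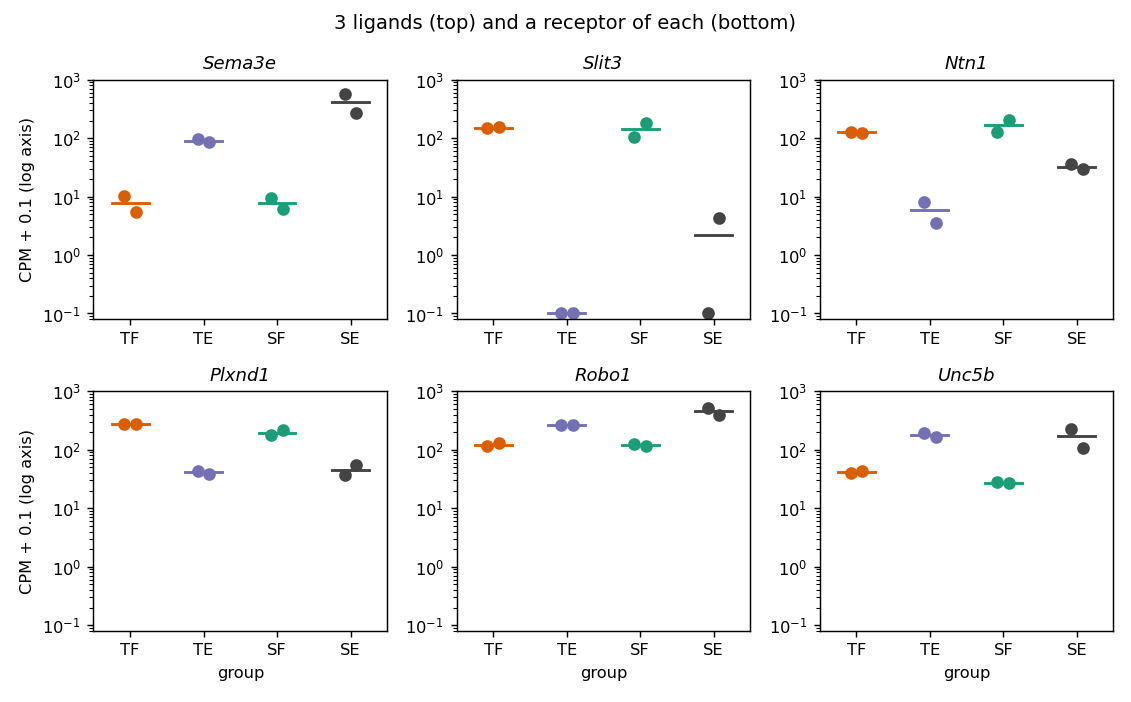
Levels of Sema3e, Slit3 and Ntn1 (top) and of a receptor of each, Plxnd1, Robo1 and Unc5b (bottom), as CPM + 0.1 on a log axis. Points are libraries and bars the group means (n = 2). Sema3e rose and Plxnd1 fell with culture, whereas Slit3 and Ntn1 fell and Robo1 and Unc5b rose, in both origins.

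The promoter windows of these genes show the DNA around the start sites of members that moved in opposite directions with culture. Each window runs from 250 bases before to 50 after a RefSeq transcript start on GRCm38.p6 and is printed 5′ to 3′ on the gene's strand. Ntn1 is not shown. Capitals mark every match to CANNTG, the E-box core that MyoD-family and other bHLH factors can bind, which reads the same on both strands. Sema3e lies on the + strand at chr5:14025026-14025325, Plxnd1 on the - strand at chr6:115994956-115995255, Slit3 on the + strand at chr11:35121206-35121505, Robo1 on the + strand at chr16:72662899-72663198 and Unc5b on the - strand at chr10:60831532-60831831.
Sema3e: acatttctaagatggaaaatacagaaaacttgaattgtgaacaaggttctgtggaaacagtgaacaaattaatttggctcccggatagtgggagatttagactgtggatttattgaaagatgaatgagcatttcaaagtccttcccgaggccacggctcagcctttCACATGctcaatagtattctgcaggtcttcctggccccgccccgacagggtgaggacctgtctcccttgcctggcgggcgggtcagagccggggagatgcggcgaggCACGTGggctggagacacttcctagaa
Plxnd1: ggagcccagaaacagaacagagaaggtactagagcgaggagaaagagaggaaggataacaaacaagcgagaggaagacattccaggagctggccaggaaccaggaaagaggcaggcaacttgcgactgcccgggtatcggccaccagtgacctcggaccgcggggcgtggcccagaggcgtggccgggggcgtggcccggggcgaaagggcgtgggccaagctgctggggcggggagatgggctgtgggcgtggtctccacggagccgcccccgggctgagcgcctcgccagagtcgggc
Slit3: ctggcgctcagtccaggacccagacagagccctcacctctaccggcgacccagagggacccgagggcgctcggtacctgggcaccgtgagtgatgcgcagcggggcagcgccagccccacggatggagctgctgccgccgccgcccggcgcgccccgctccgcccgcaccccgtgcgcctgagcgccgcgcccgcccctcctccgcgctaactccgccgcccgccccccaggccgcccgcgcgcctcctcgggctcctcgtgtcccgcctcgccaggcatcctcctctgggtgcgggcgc
Robo1: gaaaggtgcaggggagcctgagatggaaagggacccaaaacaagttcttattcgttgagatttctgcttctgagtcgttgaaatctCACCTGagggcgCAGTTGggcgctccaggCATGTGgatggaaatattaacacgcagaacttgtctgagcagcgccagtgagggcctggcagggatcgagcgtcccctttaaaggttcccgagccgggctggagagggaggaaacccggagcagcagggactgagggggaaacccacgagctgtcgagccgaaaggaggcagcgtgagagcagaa
Unc5b: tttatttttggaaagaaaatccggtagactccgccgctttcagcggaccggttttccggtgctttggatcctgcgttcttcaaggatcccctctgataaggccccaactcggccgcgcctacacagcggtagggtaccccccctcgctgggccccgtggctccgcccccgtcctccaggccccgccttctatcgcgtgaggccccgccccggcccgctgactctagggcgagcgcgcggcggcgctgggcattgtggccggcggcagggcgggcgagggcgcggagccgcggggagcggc
The Robo1 window, which lies inside the annotated gene downstream of another start site, held 3 matches and the Sema3e window 2, and the windows of Plxnd1, Slit3 and Unc5b held none. Of the 59 members with a window, 29 held a match (49.2%), against 72.3% of 32851 RefSeq promoter windows of the same length. The form CAGCTG, a subset of CANNTG, was in 9 of the 59 member windows (15.3%) and in 16.3% of all windows, and in none of the 5 printed. A match is a string of letters and not a measured site.

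Among the semaphorins, 4 of 20 rose and 6 fell in TE (50%, against 26.1% of all tested genes), and 4 rose and 6 fell in SE (50%, against 40.7%). Sema3a, the prototype repellent for motor and sensory axons, which satellite cells are known to secrete, moved in opposite directions. It was at 77.5 and 109 CPM in TF, 34.1 and 43.4 in TE, 14.7 and 14.8 in SF and 258 and 152 in SE, so that the fresh origins and the expanded origins were ordered differently, without overlap. It fell by 1.27 ± 0.28 in TE (adjusted p = 0.00911), rose by 3.80 ± 0.31 in SE (adjusted p = 2.09e-05), and was 2.66 ± 0.30 higher in TF than in SF (adjusted p = 0.000402). The fall in TE was not called without TF2 (-0.97, adjusted p = 0.0669) or without TE1 (-1.08, adjusted p = 0.0776).

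Other secreted semaphorins rose in the teratoma-derived cells. Sema3d was at 16.1 and 14.7 CPM in TF and 55.5 and 67.2 in TE (1.99 ± 0.29, adjusted p = 0.000866), and at 37.9 and 53.2 in SF and 52.4 and 83.3 in SE (0.57 ± 0.27, adjusted p = 0.119). Sema3b was at 17.6 and 20.2 CPM in TF and 37.7 and 39.1 in TE (1.02 ± 0.28, adjusted p = 0.0241), and at 27.9 and 38.4 in SF and 17.9 and 25.1 in SE (-0.63 ± 0.28, adjusted p = 0.0965). The TE call of Sema3b was lost without any of the 4 teratoma-derived libraries (adjusted p from 0.0681 to 0.127). Sema3c, known from heart outflow tract development, was at 108 and 87.4 CPM in TF, 96.3 and 106 in TE, 27.8 and 30.6 in SF and 7.45 and 30.8 in SE, and was not called with culture. It was 2.41 ± 0.51 higher in TE than in SE (adjusted p = 0.0199), a difference that was 3.76 without SE2. That call was lost with only the 2 groups compared (adjusted p = 0.0722). Sema3f, whose usual receptor subunit is Nrp2, fell by 4.14 ± 0.93 in TE (adjusted p = 0.00972) and by 3.88 ± 0.93 in SE (adjusted p = 0.00885), from 5.60 to 21.9 CPM in the fresh libraries to 0.172 to 1.40 in the expanded ones. Sema3g, the remaining class 3 member, changed in SE by -3.59 ± 0.93 (adjusted p = 0.0124), or -7.24 without SE2. That SE call was lost with only the 2 groups compared (adjusted p = 0.0668). The difference of Sema3g in TE was -2.17 ± 0.82 (adjusted p = 0.0795).

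Class 6 semaphorins are transmembrane ligands. Sema6a, a ligand of Plxna2 and Plxna4, had the highest level per length of the semaphorins, with a mean of 31.8 CPM per kb over the 4 groups. It was at 131 and 191 CPM in TF, 258 and 238 in TE, 294 and 337 in SF and 130 and 234 in SE. Its levels fell by 0.79 ± 0.28 in SE (adjusted p = 0.0489) and were 0.97 ± 0.29 lower in TF than in SF (adjusted p = 0.0347). The SE call was lost without SE1 (-0.42, adjusted p = 0.266), SF1 (-0.89, adjusted p = 0.0815), SF2 (-0.67, adjusted p = 0.136), TE1 (-0.77, adjusted p = 0.0703) or TE2 (-0.77, adjusted p = 0.0703), and without SE2 the value was -1.26 (adjusted p = 0.00184). The TF call was lost without TF1 (-0.72, adjusted p = 0.211), SF1 (-1.08, adjusted p = 0.0642) or SF2 (-0.86, adjusted p = 0.0948).

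Sema6b rose in both origins, from 14.5 and 7.98 CPM in TF to 35.2 and 27.6 in TE (1.48 ± 0.42, adjusted p = 0.0270) and from 10.8 and 19.4 in SF to 33.3 and 57.8 in SE (1.59 ± 0.42, adjusted p = 0.0130). These calls were lost without TF2 (1.15, adjusted p = 0.133) or TE1 (1.33, adjusted p = 0.103), and without SF1 (1.23, adjusted p = 0.0820) or SE2 (1.15, adjusted p = 0.0640). Sema6c was lowest in SF, at 3.13 and 3.36 CPM, against 17.7 and 46.8 in SE (3.31 ± 0.49, adjusted p = 0.000628), 17.2 and 11.5 in TF and 26.3 and 22.8 in TE. Sema6d, a ligand of Plxna1, was at 61.1 and 61.3 CPM in TF, 8.07 and 9.24 in TE, 90.5 and 83.9 in SF, and 77.2 and 18.9 in SE. It fell by 2.82 ± 0.52 in TE (adjusted p = 0.00374) and differed between TE and SE by -2.47 ± 0.52 (adjusted p = 0.0197), a difference of -1.12 without SE1 (adjusted p = 0.0174) and not called without TE1 (-2.37, adjusted p = 0.0629).

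Class 4 and 5 semaphorins are mostly transmembrane, and none rose with culture. Sema4c, a Plxnb2 ligand found in muscle cells, was at 60.9 and 52.9 CPM in TF, 50.6 and 42.8 in TE, 86.4 and 109 in SF and 55.1 and 57.3 in SE. It fell by 0.79 ± 0.20 in SE (adjusted p = 0.0115), a call lost without SF2 (-0.60, adjusted p = 0.0736), and the difference of TF from SF was -0.78 ± 0.20 (adjusted p = 0.0214), lost without TF1 (adjusted p = 0.0799), TF2 (adjusted p = 0.169) or SF2 (adjusted p = 0.114). Sema4a fell in both origins (-4.30 ± 0.99 and -4.08 ± 0.97) from 4.07 to 9.59 CPM to at most 0.754, though without TE1 the TE value was -3.95 (adjusted p = 0.0672). Sema5a, a semaphorin with thrombospondin repeats, fell from 58.7 and 74.3 CPM in TF to 5.30 and 1.2 in TE (-4.34 ± 0.69, adjusted p = 0.00150) and from 32.8 and 15.7 in SF to 9.99 and 4.46 in SE (-1.74 ± 0.62, adjusted p = 0.0474). The SE call of Sema5a was lost without SF1 (-1.12, adjusted p = 0.259) or SE2 (-1.26, adjusted p = 0.141). Sema4f fell by 4.68 ± 1.23 in TE (adjusted p = 0.0198) from 1.93 and 3.67 CPM to 0.151 and 0.0519, lost without TF2 (adjusted p = 0.0886), TE1 (adjusted p = 0.0750) or TE2 (adjusted p = 0.142). Sema4d, a Plxnb1 ligand common in blood cells, was at 29.5 and 4.87 CPM in TF, 4.49 and 4.10 in TE, 16.7 and 5.45 in SF and 14.0 and 15.4 in SE. In the same order, the haematopoietic sums were 375 and 35.9, 3.18 and 4.20, 49.9 and 38.7, and 4.10 and 11.1 CPM, and a link was not tested. Sema4d was not called in any comparison, and neither were Sema4b, Sema4g, Sema5b and Sema7a, whose library levels lay between 0 and 32.0 CPM.

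Neuropilins, the binding subunits for class 3 semaphorins and coreceptors for VEGF, fell in both origins. Nrp1 was at 217 and 217 CPM in TF, 39.0 and 53.2 in TE, 114 and 169 in SF and 81.6 and 45.9 in SE, and Nrp2 at 94.6 and 63.1, 6.91 and 4.20, 59.4 and 57.6, and 8.63 and 11.4. Nrp1 fell by 2.23 ± 0.31 in TE (adjusted p = 0.000713) and by 1.15 ± 0.30 in SE (adjusted p = 0.0133), the latter lost without SF2 (-0.81, adjusted p = 0.0712). Nrp2 fell by 3.82 ± 0.34 in TE (adjusted p = 4.81e-05) and by 2.55 ± 0.32 in SE (adjusted p = 0.000216).

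Plexins, the signalling receptors for semaphorins, did not move as 1 family, with 3 of 10 lower in TE (30%, against 26.1% of all tested genes), and 3 higher and 4 lower in SE (70%, against 40.7%). Plxnb2, the receptor for Sema4c, had the highest level per length of all members, a mean of 44.2 CPM per kb, followed by Plxna1 at 37.3. Plxnb2 was at 390 and 380 CPM in TF, 355 and 365 in TE, 123 and 181 in SF and 280 and 251 in SE. SF was the lowest, with TF 1.34 ± 0.21 above it (adjusted p = 0.00222), and the rise in SE was 0.81 ± 0.21 (adjusted p = 0.0132), lost without SF1 (0.55, adjusted p = 0.0552). Plxna1 was lowest in SF as well, but unlike Plxnb2 its mean was higher in TE than in TF, with 311 and 334 CPM in TF, 486 and 471 in TE, 62.0 and 70.0 in SF and 581 and 382 in SE. It rose by 2.87 ± 0.24 in SE (adjusted p = 2.15e-05), was 2.29 ± 0.23 higher in TF than in SF (adjusted p = 0.000254), and in TE the difference from TF was 0.57 ± 0.22 (adjusted p = 0.0867). Plxna3 rose in SE as well (1.29 ± 0.32, adjusted p = 0.00994), and Plxna2 fell there by 0.68 ± 0.19 (adjusted p = 0.0194), a call lost without SE1 (-0.54, adjusted p = 0.115), SF2 (-0.51, adjusted p = 0.0952), TE1 (-0.66, adjusted p = 0.0559) or TE2 (-0.66, adjusted p = 0.0561).

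Plxna4, which with Nrp1 forms a receptor for Sema3a, was at 30.5 and 29.7 CPM in TF, 10.8 and 14.0 in SF and 0.471 and 0.457 in SE, and had 1 count in the 2 TE libraries. TF exceeded TE by 1180-fold with a counting interval of 210 to 46500, and SE fell by 4.72 ± 0.52 from SF (adjusted p = 0.000112). Plxnc1, the receptor for Sema7a, changed by -5.83 ± 1.05 in TE (adjusted p = 0.00306) and by -3.66 ± 0.92 in SE (adjusted p = 0.0111), from 6.19 to 14.4 CPM in the fresh libraries to at most 1.20. Plxnb1, Plxnb3 and Plxna4os1 were not called with culture in either origin.

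**Figure D4:**
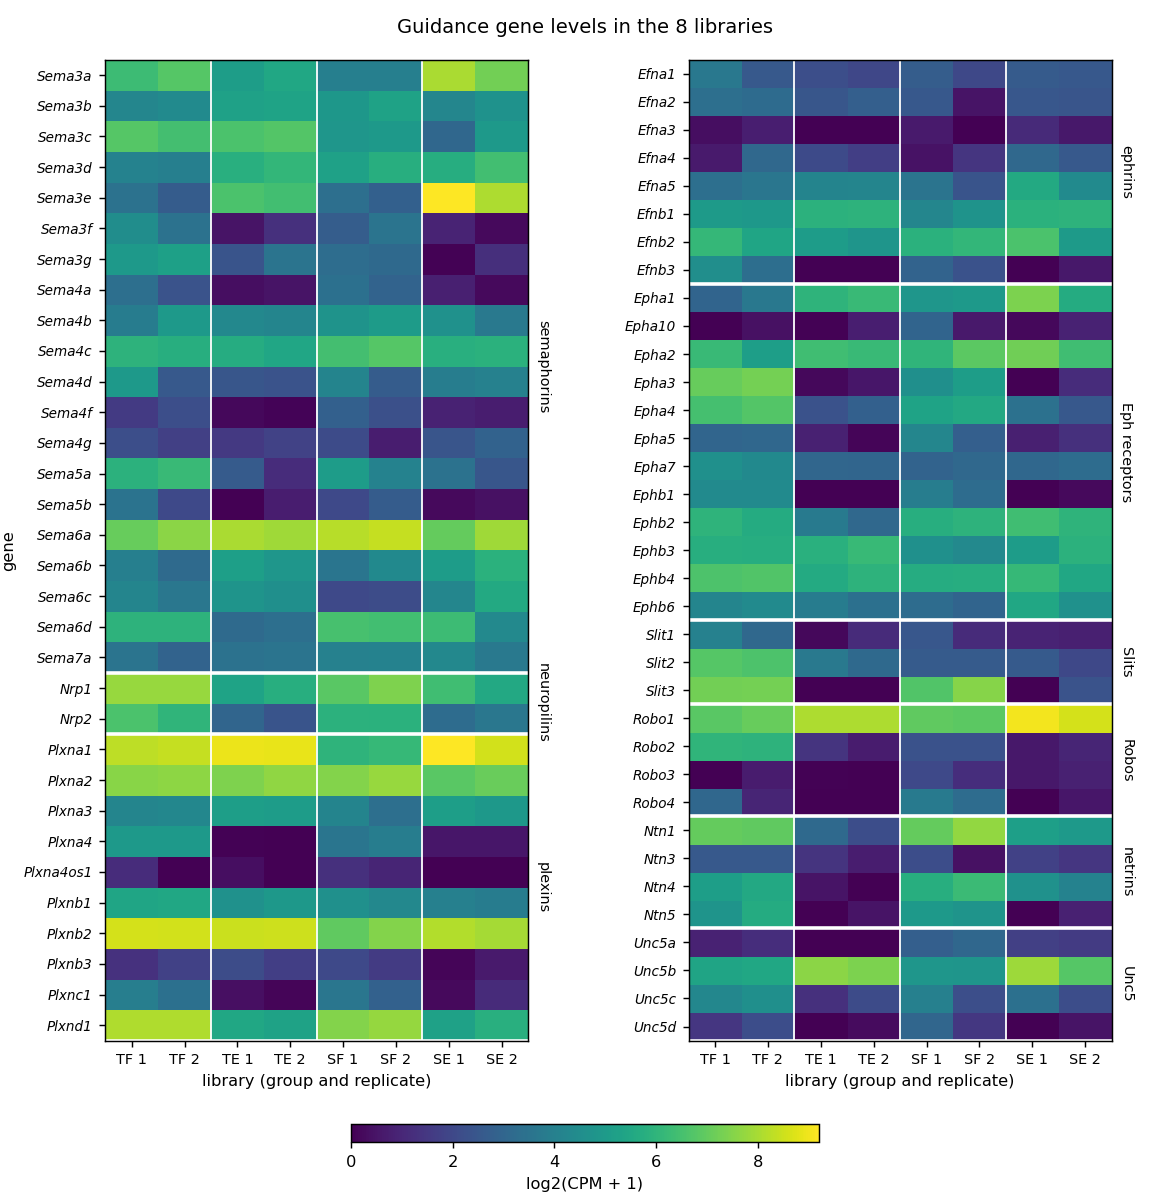
Levels of the 67 tested members in the 8 libraries as log2(CPM + 1), grouped by family, with the family names at the right. Slit3, Ntn5, Epha3 and Ephb1 are dark in the expanded libraries, Sema3e and Robo1 are brighter there, and Slit2 and Robo2 are bright in TF.

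Of the 8 ephrins, the membrane-bound ligands, 1 rose and 1 fell in TE (25%, against 26.1% of all tested genes), and 2 rose and 1 fell in SE (37.5%, against 40.7%), shares close to those of all genes. Their median log2 difference was -0.82 in TE and 1.13 in SE, against -0.18 and -0.23 over all tested genes. Efnb1, the ephrin with the highest level per length (a mean of 13.1 CPM per kb), rose from 31.0 and 28.8 CPM in TF to 59.4 and 60.3 in TE (1.0 ± 0.23, adjusted p = 0.0109) and from 17.6 and 25.3 in SF to 57.3 and 61.1 in SE (1.46 ± 0.23, adjusted p = 0.000922). The rise in TE did not pass without any of the TF or TE libraries in turn (adjusted p from 0.0505 to 0.0717). Efna5, a GPI-anchored ephrin with a role in axon mapping, rose in SE from 10.6 and 4.24 to 46.7 and 20.2 CPM (2.17 ± 0.52, adjusted p = 0.00830), with 9.25 and 11.1 in TF and 16.6 and 17.2 in TE. Efnb3 was at 22.5 and 9.01 CPM in TF and at 0 in TE, at least 103-fold lower (adjusted p = 0.00318), and at 6.61 and 4.04 in SF against 0 and 0.515 in SE (-4.39 ± 1.24, adjusted p = 0.0215). That SE call was lost without SF1 (-3.99) or with only the 2 groups compared. Without SE2, SE was left at 0 counts of Efnb3, and the fitted value of -9.42 depends on the prior count of the fit. Efna1, Efna2, Efna3, Efna4 and Efnb2 were not called, and Efnb2, the arterial ephrin, spread from 31.3 in SE2 to 96.2 CPM in SE1.

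Of the 12 Eph receptors tested, 7 fell and 1 rose in TE (66.7%, against 26.1% of all tested genes), whereas 4 fell and 3 rose in SE (58.3%, against 40.7%). Epha3, which binds ephrin-A5, showed the largest fall in both origins among the Eph receptors with more than 3 counts in each group compared: 131 and 156 CPM in TF, 0.151 and 0.467 in TE, 22.9 and 34.1 in SF, 0 and 1.26 in SE. The log2 difference was -8.83 ± 0.93 in TE (adjusted p = 0.000135) and -5.57 ± 0.82 in SE (adjusted p = 0.000593), with no overlap between fresh and expanded libraries. Without SE2, SE was left at 0 counts of Epha3, and the fitted value of -11.84 depends on the prior count of the fit. Epha4, a receptor for ephrins of both classes, was at 89.1 and 105 CPM in TF, 3.93 and 6.07 in TE, 39.8 and 46.0 in SF and 9.66 and 4.75 in SE (-4.27 ± 0.38, adjusted p = 5.47e-05, and -2.57 ± 0.36, adjusted p = 0.000419). Ephb1 was at 20.4 and 20.0 CPM in TF and 0 in TE, at least 132-fold lower (adjusted p = 0.000323), and SF at 14.1 and 8.48 exceeded the 3 counts of SE by 144-fold (counting interval 48.9 to 703, adjusted p = 0.000570). Epha5 fell in both origins too (-3.96 ± 0.99 and -3.43 ± 0.95), though not without TE2 (adjusted p = 0.0690), SF1 (adjusted p = 0.130) or SE1 (adjusted p = 0.0586), and the TE value without TE1 was -5.99 (adjusted p = 0.00793).

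Epha1 rose. It was at 6.73 and 11.7 CPM in TF, 62.0 and 74.4 in TE, 27.2 and 29.9 in SF and 167 and 49.7 in SE. The rise was 2.88 ± 0.51 in TE (adjusted p = 0.00285) and 1.92 ± 0.48 in SE (adjusted p = 0.0107), the latter lost without SE1 (0.82, adjusted p = 0.0694) or SF1 (1.85, adjusted p = 0.0633). Ephb2, a receptor for B-class ephrins, fell in the teratoma-derived cells, from 62.8 and 49.6 to 12.5 and 7.73 CPM (-2.48 ± 0.29, adjusted p = 0.000239), with 53.8 and 60 in SF and 81.3 and 62.3 in SE (0.34 ± 0.27, adjusted p = 0.328). The difference between TE and SE was -2.83 ± 0.29 (adjusted p = 0.000615). Ephb6, which lacks kinase activity, was at 17.0 and 20.0 CPM in TF, 13.5 and 9.60 in TE, 8.43 and 6.73 in SF and 43.9 and 24.4 in SE, a rise in SE of 2.17 ± 0.39 (adjusted p = 0.00174). Ephb3 rose in SE by 1.12 ± 0.29 (adjusted p = 0.0132), lost without SE2 (0.65, adjusted p = 0.0869) or SF2 (1.0, adjusted p = 0.0537). Epha7 and Ephb4 fell in TE by 1.62 ± 0.38 and 0.90 ± 0.25, and neither call held in each fit with 1 library left out (adjusted p up to 0.103 without TE2 for Epha7, lost also without TE1 at 0.0969 or TF1 at 0.0808, and up to 0.213 without TE1 for Ephb4, lost also without TE2, TF1 or TF2 at 0.0717 to 0.108). Epha2, a receptor linked to epithelial and migrating cells, had the highest level per length of the Eph receptors (a mean of 21.6 CPM per kb) and was called in no comparison: 75.2 and 34.9 CPM in TF, 82.8 and 74.1 in TE, 63.8 and 116 in SF, 147 and 83.2 in SE. Epha10 was below 1 CPM in 7 libraries and at 6.76 in SF1, and was not called.

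Slit2, a secreted repellent and the ligand most studied for Robo1 and Robo2, was highest in the fresh teratoma-derived cells. It was at 108 and 99.2 CPM in TF, 12.2 and 7.89 in TE, 5.31 and 5.25 in SF and 5.09 and 3.03 in SE. TF exceeded SF by 4.29 ± 0.35 (adjusted p = 0.000131), the change in TE was -3.37 ± 0.33 (adjusted p = 9.06e-05), and the satellite cells did not change beyond their spread (-0.37 ± 0.33, adjusted p = 0.378). TE kept a level above SE (1.30 ± 0.32, adjusted p = 0.0404), a call lost without TE1 (0.96, adjusted p = 0.296), SE2 (0.98, adjusted p = 0.117), TF1 (1.31, adjusted p = 0.0655) or TF2 (1.30, adjusted p = 0.0654). Robo2, an axon guidance receptor, was also highest in TF, with 64.2 and 61.1 CPM in TF, 1.61 and 0.623 in TE, 4.00 and 4.04 in SF and 0.519 and 0.915 in SE. It was 3.96 ± 0.46 higher in TF than in SF (adjusted p = 0.000512), and fell by 5.80 ± 0.51 in TE (adjusted p = 5.00e-05) and by 2.49 ± 0.49 in SE (adjusted p = 0.00298). The SE call of Robo2 was lost with only the 2 groups compared (adjusted p = 0.0844).

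Robo4, the Robo of blood vessels, was at 7.40 and 0.957 CPM in TF1 and TF2, 13 and 8.61 in SF, 0 in TE and 0 and 0.457 in SE, beside endothelial marker sums of 268 and 74.9 CPM in TF1 and TF2 and 288 and 371 in SF. TE was at least 27.2-fold lower than TF (adjusted p = 0.0166), and SE fell by 5.57 ± 1.58 from SF (adjusted p = 0.0218), lost without SF1 (-5.23). Without SE2, SE was left at 0 counts of Robo4, and the fitted value of -10.44 depends on the prior count of the fit. Slit1 fell in TE by 4.09 ± 1.13 (adjusted p = 0.0249) from 15.6 and 7.58 CPM to 0.151 and 1.19, a value of -6.16 without TE2 (adjusted p = 0.0146) that was not called without TF1 (-3.46, adjusted p = 0.120) or TE1 (-3.23, adjusted p = 0.103). Robo3 was at most 3.13 CPM and was not called.

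Of the other netrins, Ntn4 and Ntn5 fell in both origins and Ntn3 was not called. Ntn4, a netrin that binds laminin in basement membranes, was at 34.6 and 45.4 CPM in TF, 0.403 and 0 in TE, 53.1 and 75.7 in SF and 24.2 and 15.8 in SE. It fell by 7.56 ± 0.70 in TE (adjusted p = 6.70e-05) and by 1.69 ± 0.48 in SE (adjusted p = 0.0187), the latter lost without SF2 (-1.39). Between TE and SE the difference was -6.56 ± 0.69 (adjusted p = 0.000715). Without TE1, TE was left at 0 counts of Ntn4, and the fitted values of -12.30 and -11.32 depend on the prior count of the fit. Ntn5 was at 26.1 and 49.8 CPM in TF, 0 and 0.415 in TE, 30.5 and 26.4 in SF and 0 and 0.800 in SE, and changed by -7.48 ± 1.19 in TE (adjusted p = 0.00154) and by -6.20 ± 1.11 in SE (adjusted p = 0.00177). Without TE2 and without SE2 a group was left at 0 counts, and the fitted values of -12.23 and -11.84 depend on the prior count of the fit. Ntn3 was at most 4.96 CPM, and its difference was -2.11 ± 1.18 in TE (adjusted p = 0.212) and 0.13 ± 1.14 in SE (adjusted p = 0.935). Among the Unc5 receptors, Unc5a was at 0.841 and 1.28 CPM in TF, 0 in TE, 5.81 and 7.40 in SF and 2.31 and 2.06 in SE, so that TE was at least 6.90-fold lower than TF (adjusted p = 0.00909) and at least 14.2-fold lower than SE (adjusted p = 0.0143). The comparison of Unc5a with SE was lost without TE1 (adjusted p = 0.0674) or TE2 (adjusted p = 0.0655). Unc5c fell by 3.12 ± 0.79 in TE (adjusted p = 0.0168), lost without TE1 (-2.61, adjusted p = 0.0787), and Unc5d, at most 7.12 CPM, was not called.

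Before culture, 14 of the 67 members were higher in TF than in SF and 4 lower (26.9%, against 24.2% of all tested genes, of which 15.1% were higher and 9.13% lower). The share called was close to that of all genes, and the median difference was 0.47 against 0.08. Eph receptors were the largest family among them, with 6 of the 12 tested higher in TF (Epha3, Epha4, Epha7, Ephb3, Ephb4 and Ephb6) and 1, Epha1, lower. No ephrin, netrin, neuropilin or Unc5 gene was called. Among the receptors, Robo2 and the plexins Plxna1, Plxnb1 and Plxnb2 were higher in TF, and among the ligands Slit2, Sema3a, Sema3c and Sema6c were higher and Sema3d, Sema4c and Sema6a lower. The count fell to 9 without TF1, 10 without SF1 and 11 without SF2, and the calls of Slit2, Robo2, Sema3a, Plxna1, Plxnb2, Ephb3 and Sema3d were kept in all 14 alternative fits. Each of the other 11 calls was lost without TF1, TF2, SF1 or SF2 in at least 1 fit (adjusted p from 0.0561 to 0.211).

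After culture, 2 of the 67 members were higher in TE than in SE and 10 lower (17.9%, against 7.21% of all tested genes, of which 3.15% were higher and 4.07% lower). Sema3c and Slit2 were higher, and Sema3a, Sema3e, Sema6d, Plxna4, Ephb2, Ephb6, Robo1, Ntn1, Ntn4 and Unc5a lower. For Sema3a the difference was -2.40 ± 0.29 (adjusted p = 0.00141). SE exceeded TE for Plxna4 by 18.2-fold (counting interval 2.87 to 758), resting on the 1 TE count, which was in TE1. That call was lost without TE2 (adjusted p = 0.151). The call of Robo1 (-0.78 ± 0.20, adjusted p = 0.0418) was lost without TF1, TF2, TE1, TE2 or SE1 (adjusted p from 0.0776 to 0.313), and that of Ephb6 (-1.57 ± 0.38, adjusted p = 0.0355) without TE1, TE2 or SE1 (adjusted p from 0.0967 to 0.258). A fit with only the 2 groups compared called 7 members, all lower.

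The change with culture itself differed between origins for 15 of the 67 members, 3 higher in the teratoma-derived cells and 12 lower (22.4%, against 14.3% of all tested genes, of which 4.7% were higher and 9.62% lower). This test takes the difference between TE and TF minus the difference between SE and SF. Sema3a had the smallest p (-5.07 ± 0.42, adjusted p = 0.000160), followed by Plxna1 (-2.30 ± 0.32, adjusted p = 0.00180), Ephb2 (-2.81 ± 0.39, adjusted p = 0.00185) and Ntn4 (-5.87 ± 0.84, adjusted p = 0.00217). Slit2 (-3.0 ± 0.45, adjusted p = 0.00287), Plxna4 (-5.11 ± 0.93, adjusted p = 0.00648, with 1 count in TE), Ephb6 (-2.85 ± 0.53, adjusted p = 0.00726) and Robo2 (-3.30 ± 0.67, adjusted p = 0.0109) followed. Of these members, Sema3a, Plxna1, Slit2, Ephb6 and Robo2 were also called higher in TF than in SF, so that the origins began from different levels. For Plxna1 the group means were 323 CPM in TF and 66.0 in SF, against 479 in TE and 481 in SE. For Ntn4 the fitted value was -10.63 without TE1, which leaves TE at 0 counts, so it depends on the prior count of the fit. The count was 9 without TF1 and 25 without SE2.

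**Figure D5:**
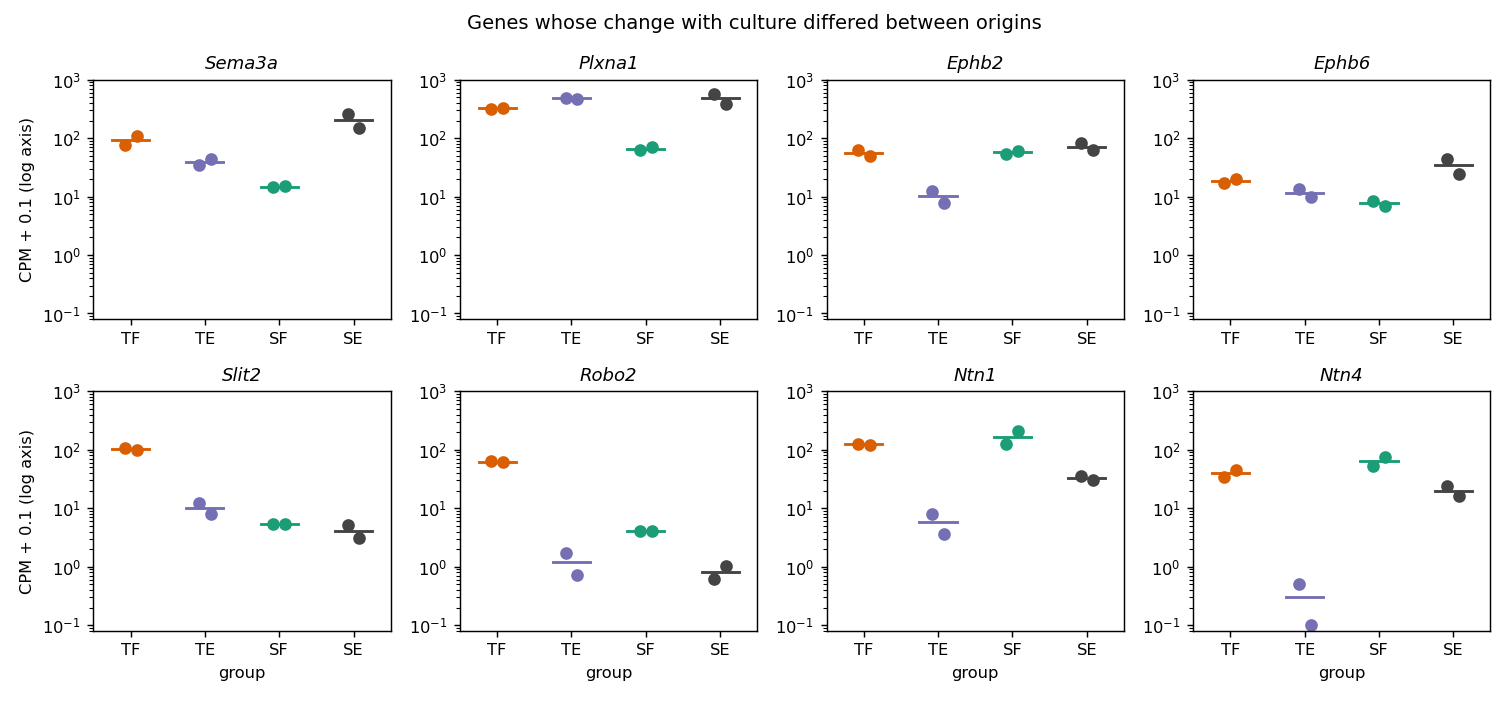
Levels of 8 members whose change with culture differed between origins, as CPM + 0.1 on a log axis, with points for libraries and bars for group means (n = 2). Sema3a falls from TF to TE and rises from SF to SE, Plxna1 and Ephb6 are lowest in SF, Ephb2, Ntn1 and Ntn4 are lowest in TE, and Slit2 and Robo2 are highest in TF.

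The 54 partner genes, 18 coreceptors and further ligands and 36 cytoplasmic effectors of the same receptors, were all tested. From TF to TE 9 rose and 20 fell (53.7%), and from SF to SE 12 rose and 15 fell (50%), against 26.1% and 40.7% of all tested genes. Chn1, the Rac-GAP α-chimaerin that acts after ephrin receptors, rose in both origins: 9.0 and 9.33 CPM in TF, 53.7 and 54.9 in TE, 6.69 and 5.45 in SF, 73.5 and 69.3 in SE (2.57, adjusted p = 5.75e-05, and 3.56, adjusted p = 7.47e-06). Inppl1, the lipid phosphatase SHIP2 that binds Eph receptors, rose to 443 and 441 CPM in TE and to 275 and 475 in SE (1.47, adjusted p = 0.00307, and 3.54, adjusted p = 2.03e-05). The netrin receptor Dcc was at 7.48 and 2.71 CPM in TF and 0 in TE, and Chl1, a partner of Nrp1, at 32.3 and 35.4 in TF, 0 in TE, 8.29 and 7.47 in SF and 0 and 0.229 in SE. Kdr, the VEGF receptor and also an endothelial marker, had no count in the expanded libraries. Dpysl3, a member of the CRMP family downstream of Sema3a, fell by 2.02 in TE (adjusted p = 0.00368) and rose by 2.29 in SE (adjusted p = 0.00117), the same directions as Sema3a, from 421 and 511 CPM in TF to 110 and 120 in TE and from 42.1 and 59.3 in SF to 354 and 143 in SE. Dpysl5 of the same family went the other way, with 26.8 and 20.9 CPM in TE against 9.92 and 3.83 in TF, and 0.283 and 0.515 in SE against 6.40 and 3.90 in SF. The other family members tested did not share the directions of Sema3a. Dpysl2 fell in TE (-1.91, adjusted p = 0.00138) and was not called in SE (-0.77, adjusted p = 0.0566). Dpysl4 fell in both origins, and Crmp1 was not called. In the remaining comparisons, 16 partner genes were higher in TF than in SF and 4 lower (37%, against 24.2% of all tested genes), and 4 were higher in TE than in SE and 4 lower (14.8%, against 7.21%). The change with culture differed between origins for 13 partner genes, 4 higher and 9 lower (24.1%, against 14.3%). The number called from TF to TE was 18 without TE2, that of TF against SF was 10 without TF2, 11 without SF1 and 13 without SF2, that of TE against SE was 3 without TE1 or without TE2, and that of the difference between origins was 22 without SE2.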

How the data were processed

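RNA was sequenced from 8 libraries made with a stranded total RNA kit, 2 in each of the groups TF, TE, SF and SE. The authors deposited a table of estimated counts for 24980 gene symbols, not normalized. The submitters' processing notes name CASAVA, kallisto 0.44.0 and the builds GRCm38 and mm10, and how reads of similar genes were divided is not given in the sources used here. Rounding these estimates to integers changed deposited totals by less than 100 counts per library. All 69 members had at least 1 count.

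Counts were filtered (edgeR 4.0.16, filterByExpr, 17582 genes kept), scaled by TMM and tested in R 4.3.3 by the quasi-likelihood method of edgeR, all 4 groups in 1 model and no replicate block (common dispersion 0.233), with Benjamini-Hochberg adjustment over all tested genes. A gene was called at adjusted p below 0.05 and log2 difference beyond 0.32, the study's thresholds. The SE of a log2 difference was taken from its size and the F statistic. Where all libraries of a group had 0 counts, the bound uses 3 counts per library, and with 1 to 3 counts in a group the ratio of summed counts is given with its 95% exact interval. Bounds and intervals cover counting error only. Where leaving out 1 library left a group at 0 counts, the fitted log2 value depends on the prior count of the fit and is not a measured size. Levels per kb are mean CPM divided by the union of exons in GENCODE M21, matched by symbol (69 of 69 members). Where median ratios replaced TMM, the median of all genes shifted by -0.16 in TF against SF, -0.02 in TE against SE and 0.14 in the difference between origins.

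The members and lists were chosen with earlier results of these data known. Given in full are, per comparison, up to 6 called members in each direction by size of change and, per family, the member with the highest level per length. Plxnd1, Nrp2, Epha4, Sema5a and partner genes other than the up to 3 largest were added after their values were seen. Alternatives were median-ratio size factors, no filter, DESeq2 1.42.0, a replicate block, glmTreat at the fold threshold, only the groups compared, and each library left out.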

Additional observations from a re-analysis of the deposited data

Results flagged for a closer look

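The change with culture differed between the teratoma-derived and the satellite cells for 15 members by the test of the difference itself (edgeR's quasi-likelihood test on the interaction, adjusted p below 0.05 over all tested genes). Values are the log2 difference of TE from TF minus that of SE from SF. It was lower in the teratoma-derived cells for Ntn4 (-5.87), Plxna4 (-5.11), Sema3a (-5.07), Robo2 (-3.30), Slit2 (-3.0), Ephb6 (-2.85), Ephb2 (-2.81), Sema6c (-2.53), Plxna1 (-2.30), Sema3e (-2.23), Ntn1 (-2.10) and Epha4 (-1.71), and higher for Sema3b (1.65), Sema3d (1.42) and Sema6a (1.42). The value of Plxna4 rests on 1 count in TE and depends on the prior count of the fit.

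Sema3a moved in opposite directions, and Sema3e rose in both origins, by less in the teratoma-derived cells. For Robo2, Plxna4, Epha4, Ntn1 and Ntn4 both origins fell, and the fall was the larger one in the teratoma-derived cells. Robo2 and Epha4 began higher in TF than in SF (group means 62.6 against 4.02 and 96.9 against 42.9 CPM). Neither was called between TE and SE (1.12 against 0.717 and 5.0 against 7.2 CPM). Sema6c, Plxna1, Sema3d and Sema6a likewise were called between TF and SF and not between TE and SE. Calls of 8 of the 15 held in all 13 alternative fits. That of Ntn1 was lost without SF1 (-1.76, adjusted p = 0.0575), and that of Sema3e without TF1 (-1.71, adjusted p = 0.0788), TE2 (-2.15, adjusted p = 0.0540) or SF2 (-1.96, adjusted p = 0.0544). Epha4 was lost without TF1, TF2, TE1, SF1, SF2 or SE1 (adjusted p from 0.0524 to 0.157, -1.09 without SE1). Sema6c was lost without TF1, TE1, TE2, SF1 or SE2 (adjusted p from 0.0627 to 0.0800, -1.68 without SE2). The calls of Sema3b, lost without TF1, TE1, TE2 or SF2 (adjusted p from 0.0562 to 0.0867), Sema3d, lost without TF1, TF2, TE1, TE2, SF2 or SE1 (adjusted p from 0.0686 to 0.143), and Sema6a, lost without TF1, TE1, TE2, SF1 or SF2 (adjusted p from 0.0575 to 0.134), were of the same kind.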

How the results depend on the processing

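No called value of a member changed direction under any alternative, and values that were not called were not followed through the alternatives. Of the called members, 26 of 37 in TE against TF, 22 of 37 in SE against SF, 7 of 18 in TF against SF, 5 of 12 in TE against SE and 8 of 15 for the difference between origins kept their call in every alternative fit. Depth bounds the falls to 0 counts, since 3 counts equal 0.141 to 0.252 CPM, and with 2 libraries per group the spread is weakly estimated. With 1 library left out, the count of called members ran from 27 to 45 in TE against TF, 30 to 38 in SE against SF, 9 to 23 in TF against SF, 8 to 15 in TE against SE and 9 to 25 for the difference between origins. The count of called partner genes ran from 18 to 33, 25 to 27, 10 to 23, 3 to 12 and 9 to 22 in the same order, and in these fits the lone library of a group is assumed to vary like the others. With only the 2 groups compared, TE against SE called 7 members and 5 partner genes, from a fit of fewer samples. Over all genes, that fit called 442 higher and 573 lower of 14193, against 553 and 715 of 17582 in the main fit. Without the filter on low counts, the difference between origins was called for 26 members and 20 partner genes, and the cause was not tested. Over all genes, 1284 were then called higher and 2362 lower of 23005, against 826 and 1691 of 17582 in the main fit. The numbers of genes tested and called over the whole table also changed when 1 library was left out. The shifts in member counts are therefore not a result about the members. The difference between origins could not be fitted with only 2 groups. With a replicate block, 38, 37, 19, 12 and 15 members were called in the 5 comparisons, and the members called in TE against SE were 3 higher and 9 lower. The labels do not say whether the replicate numbers pair the samples. Deviations of same-numbered libraries from their group means correlated between -0.023 and 0.026 over 17582 genes. With 1 difference between replicates per group, this cannot decide whether samples were paired.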
